A study of Homo sapiens with 31 samples.

Results

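Cytosolic ribosomal protein genes are described here across 5 human colon cell lines and across mixtures of their RNA. Members were chosen by name alone, as symbols made of RPL or RPS with a number and at most one of the suffixes A, X and L, plus RPLP0, RPLP1, RPLP2 and RPSA. The rule found 81 of 17113 genes in the count table: 46 genes of the large subunit, 31 of the small subunit, and 4 paralogues with the suffix L (RPL3L, RPL10L, RPL39L and RPS27L). The cancer lines LoVo, LS1034, HT-29 and HCT 116, all labelled adenocarcinoma and wild type, and the line CCD 841 CoN, labelled normal, each gave 3 unmixed total RNA libraries, without treatment. LS1034 is labelled as coming from the cecum and the other 4 lines from the colon. A further 16 libraries held RNA of 1 cancer line mixed into CCD 841 CoN RNA at 0.1%, 1%, 10% or 50%, with 1 library per line and percentage. All 31 libraries were made with a stranded kit that depletes ribosomal RNA, and the study used the mixtures to test how well a known cancer fraction can be inferred. The labels do not say whether each library of a line had its own culture, so the p-values below measure the spread between libraries, which may be technical.

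A ribosome is built from ribosomal RNA and a set of ribosomal proteins, and most cells make the proteins in matched amounts from single-copy genes scattered over the genome. The messenger RNAs of these genes typically start with a cytosine followed by a run of pyrimidines, the 5′ terminal oligopyrimidine (TOP) tract, through which the mTOR pathway sets how much of them is translated. A few paralogues are used in particular tissues: RPL39L and RPL10L are known from the testis, RPL3L from heart and skeletal muscle, and RPS27L as a p53 target gene.

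The tract can be read at the annotated starts of the members, and the windows below are printed because the results turn on these genes. Each runs from 60 bases before the RefSeq transcription start to 20 bases from it (GRCh38.p14), 5′ to 3′ on the gene's strand, and capitals mark a tract that begins with C at the start base and continues as an unbroken run of C and T. The first 4 are members that carry the tract: RPLP0 at chr12:120201092-120201171 on the minus strand, RPSA at chr3:39406660-39406739 on the plus strand, RPS12 at chr6:132814509-132814588 on the plus strand and RPL39 at chrX:119791611-119791690 on the minus strand.
RPLP0: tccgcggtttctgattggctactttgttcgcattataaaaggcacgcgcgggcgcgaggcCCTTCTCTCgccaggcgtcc
RPSA: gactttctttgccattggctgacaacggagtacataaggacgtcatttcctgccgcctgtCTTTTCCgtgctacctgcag
RPS12: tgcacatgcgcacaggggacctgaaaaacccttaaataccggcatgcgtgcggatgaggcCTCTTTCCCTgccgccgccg
RPL39: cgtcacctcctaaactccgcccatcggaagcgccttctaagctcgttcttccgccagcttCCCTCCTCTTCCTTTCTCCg
The next 8 pair a member with a paralogue: RPS27 at chr1:153990702-153990781 on the plus strand, RPS27L at chr15:63157458-63157537 on the minus strand, RPL26 at chr17:8383174-8383253 on the minus strand, RPL26L1 at chr5:172958669-172958748 on the plus strand, RPL36A at chrX:101390951-101391030 on the plus strand, RPL36AL at chr14:49620607-49620686 on the minus strand, RPL22 at chr1:6199576-6199655 on the minus strand and RPL22L1 at chr3:170870176-170870255 on the minus strand.
RPS27: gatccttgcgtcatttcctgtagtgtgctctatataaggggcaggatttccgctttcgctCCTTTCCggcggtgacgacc
RPS27L: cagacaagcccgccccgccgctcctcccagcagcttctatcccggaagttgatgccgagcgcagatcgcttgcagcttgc
RPL26: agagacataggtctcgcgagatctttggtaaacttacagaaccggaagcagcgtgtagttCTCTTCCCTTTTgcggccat
RPL26L1: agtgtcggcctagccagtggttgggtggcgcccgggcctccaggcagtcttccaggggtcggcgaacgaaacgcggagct
RPL36A: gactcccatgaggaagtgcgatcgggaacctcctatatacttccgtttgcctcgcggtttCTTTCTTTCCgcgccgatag
RPL36AL: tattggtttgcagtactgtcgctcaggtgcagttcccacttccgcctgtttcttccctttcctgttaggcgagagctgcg
RPL22: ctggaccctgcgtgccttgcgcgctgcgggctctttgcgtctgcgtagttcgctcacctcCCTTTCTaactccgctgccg
RPL22L1: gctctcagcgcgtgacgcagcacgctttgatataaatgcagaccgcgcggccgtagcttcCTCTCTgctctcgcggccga
In the RPS27L, RPL26L1 and RPL36AL windows no tract of at least 5 bases begins at the start base, so they have no capitals, whereas RPL22L1 has a tract like that of RPL22. RPL39 has the longest tract of the members, 19 bases.

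Of the 81 members, 64 had a window in the RefSeq table, and 46 of them (71.9%) had C at the start base and at least 4 more C or T after it, with a median tract of 8 bases. The same was true of 7.11% of 11556 genes that had a window and were tested between the lines. The 18 members without the tract at that base included RPL3, RPL4, RPL32, RPS26, RPS4X and RPS27L. This rests on the single annotated start base, so a start annotated a few bases away can hide a tract. In the printed window of RPL36AL, for example, the start base lies inside a run of C and T that begins before it. Other motifs, searched on both strands of the full 300-base window, differed less between members and other genes: CCGGAAG stood in 35.9% of the member windows and 20.5% of the tested genes' windows, GGGCGG in 59.4% and 75.0%, and TATAAA in 9.38% and 9.49%. A match of letters is a description of the reference and no evidence that a factor binds there.

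Library depth ran from 9688765 to 56741879 counts, and the third library was the shallowest in each line except HCT 116. Epithelial marker genes reached 1 CPM (a count per 1000000 counts of the library) in 8 of 8 cases in LoVo, LS1034 and HT-29 and in 6 of 8 in HCT 116. CCD 841 CoN reached it for 2 of 8, with no count for KRT20 or VIL1, while all 8 fibroblast and mesenchymal markers were present, summing to 26736 to 31969 CPM against 1.51 to 36.0 CPM in the cancer libraries. As CCD 841 CoN is the only line labelled normal, malignancy and cell type cannot be told apart in comparisons with it. In bulk RNA a larger share of one gene class also cannot be told apart from less RNA of the other classes per cell.

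Ribosomal protein genes took a larger share of the RNA in every cancer library than in any CCD 841 CoN library. The 81 members together held 6.59%, 5.74% and 8.96% of all counts in the LoVo libraries 1 to 3, a mean of 7.09% ± 1.67 (SD, n = 3). LS1034 held 3.90%, 3.33% and 4.89% (4.04% ± 0.788), HT-29 held 3.82%, 3.29% and 4.17% (3.76% ± 0.444), and HCT 116 held 3.28%, 3.62% and 4.51% (3.80% ± 0.638). CCD 841 CoN held 1.92%, 1.37% and 1.32% (1.54% ± 0.332). LoVo stood above the other cancer lines without overlap, and the other 3 cancer lines overlapped one another. The ratio to CCD 841 CoN was 4.61 for LoVo, 2.63 for LS1034, 2.45 for HT-29 and 2.47 for HCT 116. Over the 12 cancer libraries the mean was 4.68%, which is 3.14 percentage points above CCD 841 CoN (exact permutation test over 455 arrangements, 2-sided, p = 0.011). This test treats single libraries as exchangeable, although they come from 4 cancer lines of unlike level and 1 normal line. Its p-value therefore mixes the spread between lines with that between libraries and is no test over lines. Between single lines the smallest p that 3 against 3 libraries allow is 0.1, so those ratios carry no test.

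The balance of the subunits was less variable than the total. Summed counts of large subunit genes over those of small subunit genes gave 1.21 to 1.36 in the LS1034 libraries, the lowest of the lines, 1.35 to 1.48 in LoVo and 1.41 to 1.46 in HT-29. HCT 116 (1.49 to 1.58) and CCD 841 CoN (1.53 to 1.59) had the highest ratios and overlapped each other.

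**Figure D1:**
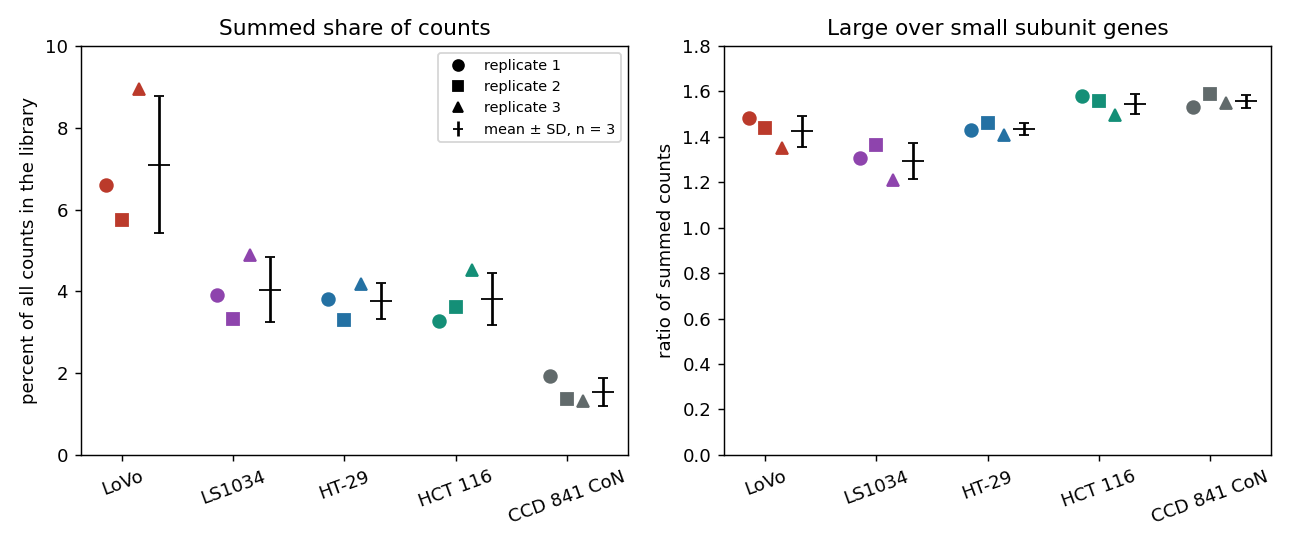
Left, the percent of all counts of a library held by the 81 members, and right, the ratio of large to small subunit counts, by line on the x axis. Points are libraries with their replicate number as the shape, and bars give the mean and SD of 3 libraries; the 3 CCD 841 CoN libraries, at 1.32% to 1.92%, lie below all 12 cancer libraries, which start at 3.28%.

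Within the pool of ribosomal protein RNA, counts were spread over many genes. Ranked by their part of the members' counts, averaged over the 5 lines, the top 5 members held 15.5% and the top 10 held 28.9%. Of the 81 members, 74 averaged at least 100 CPM over the line means. Per kilobase of annotated transcript (GENCODE 29, median over the principal transcripts), the median member stood at 466 CPM per kb. The highest was RPS19, a small subunit protein mutated in Diamond-Blackfan anaemia, at 1790 CPM per kb, and the lowest was RPL10L at 0.0119 CPM per kb. Processed pseudogenes exist for 76 of the 81 members, 1120 in all and up to 90 for RPL23A, and how reads shared with such copies were counted is not given in the sources used here.

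Most members followed the same order of lines. Of 77 members averaging at least 10 CPM, 72 (93.5%) were highest in LoVo, where 20.7% of 9933 genes at that level were, and 75 (97.4%) were lowest in CCD 841 CoN, against 47.3% of all genes. The exceptions to the LoVo peak were RPL23 and RPS10, highest in HT-29, RPL38 and RPS24, highest in HCT 116, and RPS15, highest in LS1034. The exceptions at the low end were RPL39L and RPS27L, which were lowest in HCT 116.

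Against CCD 841 CoN, most ribosomal protein genes were higher in the mean of the 4 cancer lines. Of 80 members tested by edgeR's quasi-likelihood test, 69 were higher and 2 lower at a Benjamini-Hochberg adjusted p of 0.05, where 31.8% of all 14452 genes tested were called higher and 27.8% lower. The members' median log2 fold change was 1.26 and that of all genes 0.22. In 62 members all 12 cancer libraries lay above all 3 CCD 841 CoN libraries, a pattern that 20.2% of all genes showed. By subunit, 41 of 46 large subunit genes (median 1.19) and 27 of 31 small subunit genes (median 1.35) were higher. The 2 lower genes were RPL39L and RPS27L. The count of higher genes was 67 when the 4 mixtures at 0.1% served as the control. A setting with CCD 841 CoN replicate 1 as the only control leaves 1 library in that group. A call lost there may reflect the smaller group as well as the level of that library, and these were not told apart.

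The single lines differed in how many members were called higher than in CCD 841 CoN. LoVo had 73 higher and none lower (all genes: 29.8% higher, 24.3% lower), with a members' median of 1.90 against 0.23 for all genes, and none was lower at an unadjusted p of 0.05 or in DESeq2 either. LS1034 had 58 higher and 2 lower (all genes: 29.4% and 23.9%; members' median 1.05). HT-29 also had 58 higher and 2 lower (all genes: 28.4% and 23.4%; median 1.07). HCT 116 had 54 higher and 2 lower (all genes: 29.2% and 23.7%; median 1.01). In LS1034, HT-29 and HCT 116 the lower genes were again RPL39L and RPS27L. Against replicate 1 of CCD 841 CoN alone, the ratio of summed shares was 3.69 in LoVo and 2.10 in LS1034. It was 1.96 in HT-29 and 1.98 in HCT 116, and these ratios carry no test. With a log2 fold change of at least 1 required as well, 53 members were higher over the 4 lines (all genes: 24.8%), 69 in LoVo (26.4%), 42 in LS1034 (25.7%), 41 in HT-29 (24.7%) and 41 in HCT 116 (25.4%). The median of all genes itself depended on scaling: for the mean of the 4 lines it was 0.51 with library sizes and 0.07 with DESeq2 size factors, beside members' medians of 1.54 and 1.11.

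**Figure D2:**
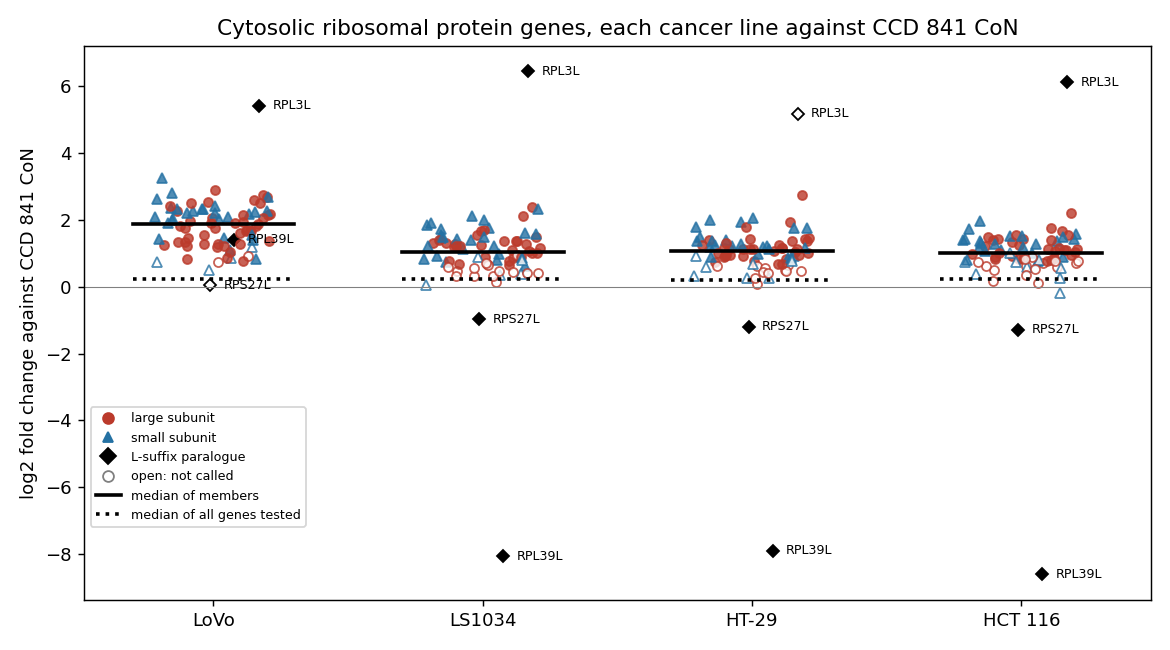
The y axis gives the log2 fold change of each of 80 members against CCD 841 CoN, and the x axis the 4 cancer lines; filled points were called at an adjusted p of 0.05, the solid bar is the members' median and the dotted bar that of all genes tested. The members' median stands at 1.90 in LoVo and 1.01 to 1.07 in the other 3 lines, RPL39L lies far below the rest outside LoVo, and the fitted values of RPL3L depend on the prior count because CCD 841 CoN had no count for it.

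The proteins of the stalk, which recruits the elongation factors to the large subunit, were all higher in the cancer lines. RPLP0, the base of the stalk, stood at 3250, 2430 and 4267 CPM in LoVo, 1573, 1061 and 1527 in LS1034, 1025, 847 and 919 in HT-29, 1105, 1168 and 1330 in HCT 116, and 461, 297 and 310 in CCD 841 CoN. LoVo lay above every other library and CCD 841 CoN below every other. The log2 fold change of RPLP0 over the 4 lines was 1.79 ± 0.26 (SE), with an adjusted p of 2.03e-05 in edgeR. RPLP1, one of its acidic partners, rose by 1.66 ± 0.24 (adjusted p = 1.6e-05) and RPLP2, the other, by 1.19 ± 0.26 (adjusted p = 0.000838).

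RPL5 and RPL11, which with the 5S ribosomal RNA form the particle that binds MDM2 when ribosome assembly is disturbed, were both higher in the cancer lines. RPL5 stood at 2102, 1130 and 1177 CPM in LoVo, 661, 557 and 572 in LS1034, 902, 753 and 739 in HT-29, 1231, 974 and 845 in HCT 116, and 336, 300 and 276 in CCD 841 CoN. RPL11 stood at 399, 400 and 488 CPM in LoVo, 210, 187 and 216 in LS1034, 264, 281 and 296 in HT-29, 247, 297 and 315 in HCT 116, and 138, 120 and 111 in CCD 841 CoN. For both genes LS1034 was the lowest of the cancer lines, without overlap, and CCD 841 CoN was lower still. The log2 fold change over the 4 lines was 1.31 ± 0.24 for RPL5 (edgeR adjusted p = 0.000241) and 0.94 ± 0.18 for RPL11 (adjusted p = 0.00028).

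Among the other large subunit genes, RPL12, a protein at the foot of the stalk, had one of the largest differences, 1.94 ± 0.29 (edgeR adjusted p = 2.32e-05). Its levels were 505 to 934 CPM in LoVo and 73.2 to 129 in CCD 841 CoN. RPL39, a very small protein of the exit tunnel, stood at 244, 143 and 299 CPM in LoVo, 182, 120 and 261 in LS1034, 158, 120 and 193 in HT-29, 173, 100 and 161 in HCT 116, and 63.3, 40.2 and 43.8 in CCD 841 CoN. The 4 cancer lines overlapped for RPL39 and all lay above CCD 841 CoN, with a log2 fold change of 1.57 ± 0.33 (adjusted p = 0.000747). RPL36A had the largest fitted change of the large subunit genes, 2.52 ± 0.49 (adjusted p = 0.000348), from 0.413 to 0.731 CPM in CCD 841 CoN to 2.87 to 7.99 CPM in the cancer lines. RPL36A overlaps a read-through gene, as do RPL17 and RPS10, so the reads given to these 3 genes are uncertain. The large subunit genes not called were RPL13, RPL17, RPL27, RPL28 and RPL35.

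Small subunit genes had the largest differences among the well-expressed members. RPS12, which sits at the beak of the small subunit, stood at 1112, 717 and 1292 CPM in LoVo, 424, 294 and 485 in LS1034, 289, 257 and 332 in HT-29, 408, 316 and 365 in HCT 116, and 133, 64.6 and 66.3 in CCD 841 CoN. LoVo was highest without overlap and CCD 841 CoN lowest without overlap. The log2 fold change of RPS12 was 2.10 ± 0.31 over the 4 lines (edgeR adjusted p = 2.62e-05) and 3.24 ± 0.37 in LoVo alone (adjusted p = 2.21e-06). RPS15A (2.09 ± 0.27), RPS3A (2.08 ± 0.32), RPS3 (1.97 ± 0.23), RPS21 (1.95 ± 0.29) and RPS18 (1.93 ± 0.29) followed. RPS3, which lines the messenger RNA entry channel, rose from 228 to 315 CPM in CCD 841 CoN to at least 736 CPM in every cancer library. RPS10, RPS15 and RPS26 were among the small subunit genes not called.

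Of the genes named so far, RPLP0, RPLP1, RPL12, RPS3, RPS3A, RPS12, RPS15A, RPS18 and RPS21 were also called higher over the 4 lines with CCD 841 CoN replicate 1 as the only control, with log2 fold changes of 1.22 for RPLP1 to 1.61 for RPS3. In that setting RPL5 (1.08, edgeR adjusted p = 0.0617), RPL11 (0.70, adjusted p = 0.0982), RPLP2 (0.75, adjusted p = 0.173), RPL39 (1.12, adjusted p = 0.126) and RPL36A (2.22, adjusted p = 0.0558) were not called. The lower genes RPL39L (-6.12, adjusted p = 7.79e-07) and RPS27L (-1.25, adjusted p = 0.0178) were called there too.

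RPSA, a small subunit protein also described as a laminin receptor, separated all 5 lines. It stood at 549, 592 and 598 CPM in LoVo, 327, 366 and 361 in HCT 116, 246, 236 and 224 in LS1034, 176, 162 and 147 in HT-29, and 139, 94.7 and 89.0 in CCD 841 CoN. These 5 groups did not overlap, and HT-29 was the lowest cancer line. In edgeR, RPSA rose by 2.09 ± 0.22 in LoVo (adjusted p = 1.04e-06), by 1.39 ± 0.22 in HCT 116 (adjusted p = 6.85e-05) and by 0.85 ± 0.22 in LS1034 (adjusted p = 0.00367). In HT-29 the log2 difference of 0.34 ± 0.22 was not called (adjusted p = 0.204), although without CCD 841 CoN replicate 1 it was 0.58 and called (adjusted p = 0.0485), as it was with library size scaling (0.59, adjusted p = 0.0241). The LS1034 call of RPSA was lost with CCD 841 CoN replicate 1 as the only control (0.42, adjusted p = 0.33) and without the third library of every line (0.71, adjusted p = 0.0676). RPSA has 73 processed pseudogenes.

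RPL39L, a paralogue of RPL39 known mainly from the testis, was nearly all or nothing. It stood at 37.5, 50.4 and 56.5 CPM in LoVo and at 17.0, 13.1 and 12.9 CPM in CCD 841 CoN, while 3 libraries each gave a summed 4 counts in LS1034, 4 in HT-29 and 3 in HCT 116. LoVo and CCD 841 CoN did not overlap, and each of the other 3 lines had at least 1 library with no count. Pooled over libraries, CCD 841 CoN was 271 times above LS1034 (95% counting interval 105 to 998), 244 times above HT-29 (94.8 to 898) and 380 times above HCT 116 (129 to 1845). LoVo was 806 times above LS1034 (314 to 2959), 725 times above HT-29 (283 to 2662) and 1128 times above HCT 116 (386 to 5473). These intervals cover counting error only. LoVo against CCD 841 CoN gave a log2 fold change of 1.41 ± 0.51 (edgeR adjusted p = 0.0273), a call lost when LoVo replicate 2 (1.34, adjusted p = 0.0717), LoVo replicate 3 (1.24, adjusted p = 0.0862) or any single CCD 841 CoN library was left out (1.33 to 1.56). RPL39 did not share this pattern, being highest in LoVo but present at 100 CPM or more in every cancer library.

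RPS27L, a paralogue of RPS27 and a p53 target gene, went against the other members. It stood at 428, 410 and 597 CPM in LoVo, 235, 169 and 279 in LS1034, 175, 145 and 252 in HT-29, 217, 124 and 218 in HCT 116, and 460, 314 and 339 in CCD 841 CoN. LoVo overlapped CCD 841 CoN, and the other 3 lines lay below it. In edgeR it fell by 0.97 ± 0.33 in LS1034 (adjusted p = 0.0216), by 1.20 ± 0.33 in HT-29 (adjusted p = 0.00672) and by 1.29 ± 0.33 in HCT 116 (adjusted p = 0.00398). In LoVo the log2 difference was 0.04 ± 0.33 (adjusted p = 0.922), and its sign changed with the scaling and with the libraries used. Over the 4 lines it fell by 0.85 ± 0.25 (adjusted p = 0.00705), and without CCD 841 CoN replicate 1 the value of -0.66 was not called (adjusted p = 0.0761). The LS1034 call was likewise lost without CCD 841 CoN replicate 1 (-0.77, adjusted p = 0.0969), without LS1034 replicate 2 (-0.85, adjusted p = 0.0589) or with library size scaling (-0.70, adjusted p = 0.0521).

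The part of RPS27L in the members' summed counts was lower in every cancer line, but this share falls as the sum rises, and the sum was 4.61 times larger in LoVo, where RPS27L itself was not called. RPS27L made up 2.41% ± 0.138 of the members' counts in CCD 841 CoN, 0.677% ± 0.034 in LoVo, 0.56% ± 0.048 in LS1034, 0.501% ± 0.088 in HT-29 and 0.496% ± 0.16 in HCT 116 (SD, n = 3 each). All 12 cancer libraries lay below 0.716% and the CCD 841 CoN libraries above 2.29%. RPS27 itself, a zinc finger protein of the small subunit, stood at 874, 800 and 1296 CPM in LoVo, 466, 350 and 612 in LS1034, 412, 332 and 379 in HT-29, 299, 292 and 417 in HCT 116, and 270, 188 and 170 in CCD 841 CoN. It was called higher in LoVo (1.92 ± 0.31, edgeR adjusted p = 8.92e-05) and in LS1034 (0.92 ± 0.31, adjusted p = 0.0185). The LS1034 call was lost without LS1034 replicate 3 (0.65, adjusted p = 0.0855), CCD 841 CoN replicate 2 (0.85, adjusted p = 0.0717) or CCD 841 CoN replicate 3 (0.78, adjusted p = 0.0861). In HT-29 (0.59 ± 0.30, adjusted p = 0.113) and HCT 116 (0.37 ± 0.30, adjusted p = 0.314) it was not called, though with library size scaling both were (0.84 and 0.68).

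The other L-suffix paralogues were at the limit of detection. RPL3L, the muscle paralogue of RPL3, had no count in CCD 841 CoN and summed counts of 17 in LoVo, 40 in LS1034, 15 in HT-29 and 27 in HCT 116. Set against a floor of 3 counts over the CCD 841 CoN libraries, RPL3L was at least 3.48-fold higher in LoVo, at least 8.56-fold higher in LS1034, at least 3.57-fold higher in HT-29 and at least 5.50-fold higher in HCT 116. These folds leave out counting error. In edgeR, RPL3L was called higher over the 4 lines (adjusted p = 0.0186), but not without CCD 841 CoN replicate 1 (adjusted p = 0.0741). Without that library the calls in LoVo, LS1034 and HCT 116 were lost too (adjusted p = 0.121, 0.0562 and 0.0723). The LoVo call was also lost in DESeq2 (adjusted p = 0.0784), and in HT-29 RPL3L was not called. No library reached 1 CPM, whereas RPL3, an abundant protein near the peptidyl transferase centre, was between 349 and 3654 CPM. RPL10L, a testis paralogue of RPL10, had 1 count in LS1034, 1 in CCD 841 CoN and none in the other 3 lines, so no fold was formed.

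**Figure D3:**
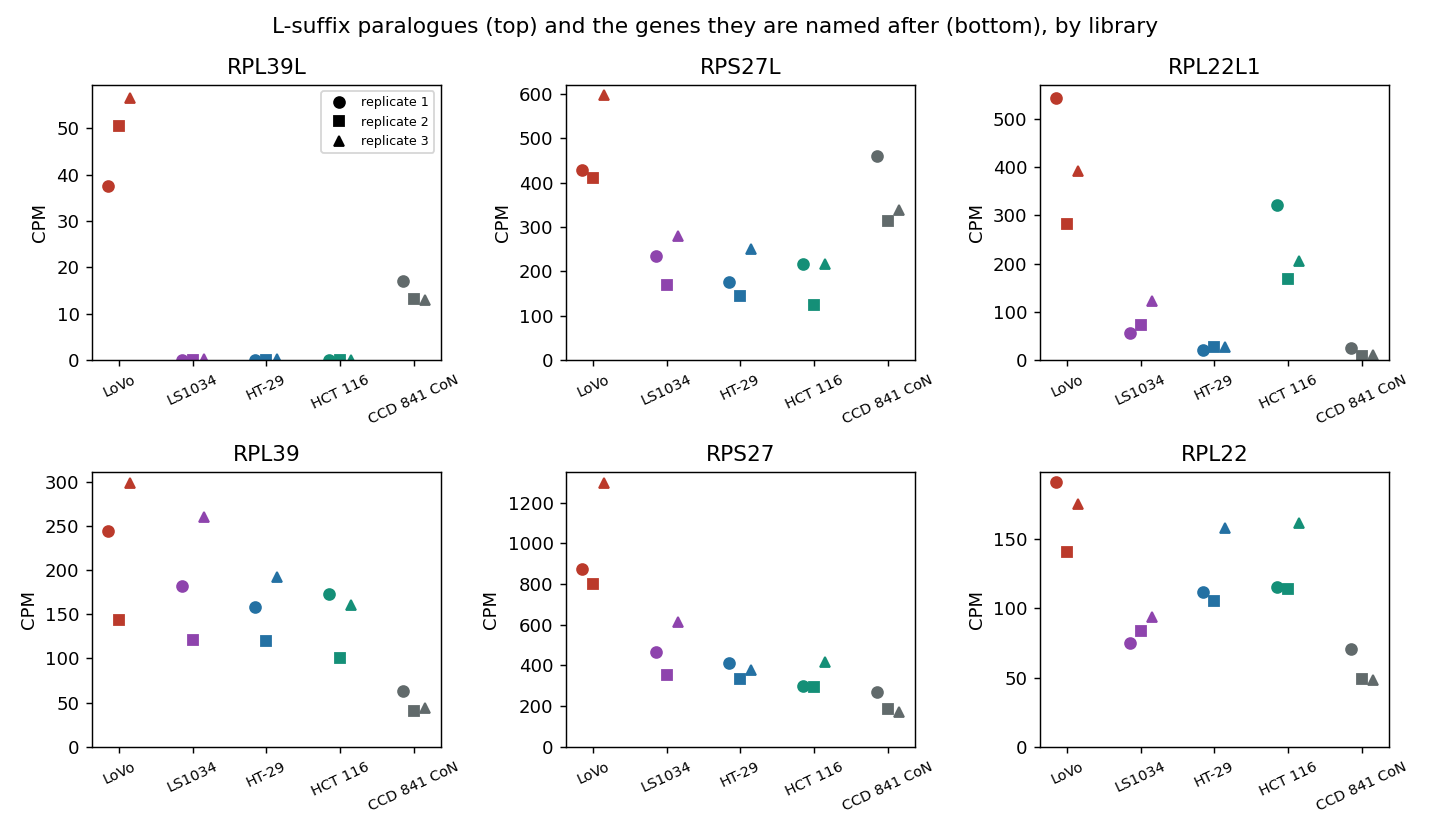
CPM (y axis) by line (x axis) for RPL39L, RPS27L and RPL22L1 above the genes they are named after, RPL39, RPS27 and RPL22; each point is 1 library and its shape the replicate number. RPL39L lies above 10 CPM in the LoVo and CCD 841 CoN libraries and near 0 in the other 9, RPS27L is as high in CCD 841 CoN as in LoVo, and RPL22L1 is highest in LoVo and HCT 116.

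Paralogues and fused ribosomal genes outside the naming rule were less uniform than the members. RPL22L1, a paralogue of RPL22, stood at 544, 282 and 392 CPM in LoVo, 322, 168 and 205 in HCT 116, 56.5, 72.1 and 122 in LS1034, 20.7, 26.9 and 27.9 in HT-29, and 25.6, 9.09 and 9.91 in CCD 841 CoN. HT-29 overlapped CCD 841 CoN and the other 3 lines did not. In edgeR it rose by 4.44 ± 0.50 in LoVo (adjusted p = 1.79e-06), by 3.65 ± 0.48 in HCT 116 (adjusted p = 1.16e-05) and by 2.21 ± 0.45 in LS1034 (adjusted p = 0.000678). The HT-29 value of 0.49 ± 0.44 was not called (adjusted p = 0.361), although without CCD 841 CoN replicate 1 it was 1.17 and called (adjusted p = 0.0405). RPL22 varied less, from 74.9 CPM to 192 CPM in the cancer lines against 48.2 to 70.6 in CCD 841 CoN, with a change of 0.86 ± 0.23 over the 4 lines (adjusted p = 0.00474). This call was lost with CCD 841 CoN replicate 1 as the only control (0.44, adjusted p = 0.387) and without the third library of every line (0.60, adjusted p = 0.082), and the former setting also ended the LS1034 call of RPL22L1 (1.38, adjusted p = 0.0869).

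For 2 further pairs the member was higher in the cancer lines while its paralogue was not called. RPL26 rose by 1.52 ± 0.25 over the 4 lines (edgeR adjusted p = 8.22e-05), from 37.5 to 51.6 CPM in CCD 841 CoN, and RPL26L1, at 30.4 to 79.3 CPM over all lines, differed by -0.28 ± 0.25 (adjusted p = 0.36). RPL36AL, at 120 to 308 CPM over all lines, differed by -0.19 ± 0.21 (adjusted p = 0.455), and both of these signs turned with library size scaling. Against the 0.1% mixtures as the control, RPL26L1 was called lower (-0.64, adjusted p = 0.0148). RPL7L1 (0.25 ± 0.17, adjusted p = 0.224) was not called either, though it was under library size scaling (0.54, adjusted p = 0.0122). FAU, a fusion of a ubiquitin-like protein with a small subunit protein, rose by 1.17 ± 0.32 (adjusted p = 0.00469), and RACK1, the scaffold protein of the small subunit, by 1.11 ± 0.20 (adjusted p = 0.000159). With CCD 841 CoN replicate 1 as the only control neither FAU (0.92, adjusted p = 0.216) nor RACK1 (0.86, adjusted p = 0.0658) was called. Whether a member and its paralogue changed differently was not tested.

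The cancer lines also differed from one another. In a joint edgeR test of the 4 lines, 45 of 80 members varied at an adjusted p of 0.05, near the share of all genes, 57.4%. With the replicate number as a block 58 of 80 members and 9602 of 14452 genes varied, and without the third library of every line 21 of 80 members and 6246 of 14727 genes. Set against the mean of the other 3 cancer lines, LoVo had 48 members higher and none lower (all genes: 16.7% higher, 11.5% lower), with a members' median of 0.76 against 0.01 for all genes, and the count of lower members was also 0 at an unadjusted p of 0.05 and in DESeq2. This count was 27 without LoVo replicate 3. The largest values besides RPL39L were those of RPS12 (1.53 ± 0.26, adjusted p = 0.000298), RPLP0 (1.48 ± 0.22, adjusted p = 0.000102), RPL3 (1.43 ± 0.21, adjusted p = 9.74e-05) and RPLP1 (1.35 ± 0.20, adjusted p = 0.000107). RPS27L was also higher in LoVo than in the other cancer lines, by 1.19 ± 0.25 (adjusted p = 0.00204).

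In LS1034, HT-29 and HCT 116 the share of members lower than in the other cancer lines was near that of all genes. LoVo, highest in most members, was part of each of these references. Taken in pairs, LS1034, HT-29 and HCT 116 differed in few of 80 members in edgeR. LS1034 had 0 higher and 1 lower than HT-29 (all genes: 12.7% higher, 12.6% lower). Against HCT 116, LS1034 had 2 higher and 3 lower (all genes: 18.7% and 19%), and HT-29 2 and 1 (17.1% and 18.1%). Against the mean of the other 3 cancer lines, LS1034 had 10 lower and none higher (all genes: 14.3% lower, 17.9% higher). With the replicate number as a block 16 were lower, but the shares of all genes given here are from the fit without that block. None was higher at an unadjusted p of 0.05 or in DESeq2. RPL23A, which binds at the tunnel exit, stood at 211, 174 and 183 CPM in LS1034, below every library of the other cancer lines, and fell by 0.95 ± 0.23 (edgeR adjusted p = 0.00452). RPL5 (-0.82 ± 0.24, adjusted p = 0.0158) and RPL11 (-0.65 ± 0.18, adjusted p = 0.0109) were lower there as well. The RPL5 call was lost without LS1034 replicate 2 (-0.74, adjusted p = 0.0622) or replicate 3 (-0.78, adjusted p = 0.0531), and the RPL11 call without replicate 2 (-0.56, adjusted p = 0.0579). Without the third library of every line none of RPL23A (-0.83, adjusted p = 0.0699), RPL5 (-0.92, adjusted p = 0.0762) and RPL11 (-0.64, adjusted p = 0.0676) was called.

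HT-29 had 11 members lower and 1 higher (all genes: 12.9% lower, 17.1% higher). The largest fall besides RPL39L was that of RPSA, -1.11 ± 0.19 (edgeR adjusted p = 0.0003). RPL23, another MDM2-binding large subunit protein, was the higher one, at 625, 529 and 577 CPM in HT-29 against 470 to 522 in LoVo, 242 to 334 in LS1034 and 334 to 365 in HCT 116. All HT-29 libraries lay above those of the other cancer lines, and RPL23 rose by 0.71 ± 0.18 (adjusted p = 0.0067), a call lost without HT-29 replicate 1 (0.62, adjusted p = 0.0559) and without the third library of every line (0.65, adjusted p = 0.0763).

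HCT 116 had 13 members lower and 1 higher (all genes: 15.5% lower, 19.8% higher). With the replicate block 21 were lower, but these shares of all genes are from the fit without it. RPL10, which joins the large subunit last during its maturation, stood at 318, 441 and 517 CPM in HCT 116 against 613 to 1232 CPM in the other cancer lines, without overlap, and fell by 1.08 ± 0.26 (edgeR adjusted p = 0.00358). RPL38, a small large-subunit protein known for its part in translating Hox messenger RNAs, was the higher one, at 463, 633 and 785 CPM in HCT 116 against 269 to 496 CPM in the other cancer lines. Its lowest HCT 116 library overlapped the highest HT-29 library. RPL38 rose by 0.76 ± 0.22 (adjusted p = 0.0113), a call lost without HCT 116 replicate 3 (0.54, adjusted p = 0.114).

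Libraries of 1 line did not agree on these genes, and the disagreement ran through nearly all members at once. In CCD 841 CoN, replicate 1 was the highest of the 3 libraries in 77 of 77 members at 10 CPM or more, where 43.9% of all genes were highest in it, and its median member stood at 1.45 times the mean of replicates 2 and 3. The mixtures at 0.1%, which are almost wholly CCD 841 CoN RNA, had a median of 0.961 times replicate 1 and 1.40 times the mean of replicates 2 and 3. In the cancer lines, replicate 3 was the highest library in 63 of 77 members in LoVo, 65 in LS1034, 51 in HT-29 and 61 in HCT 116, where 28.8%, 27.3%, 35.7% and 30.8% of all genes were. Replicate 3 was the shallowest library in LoVo (12543986 counts), LS1034 (13396200) and HT-29 (10800329), and replicate 1 the deepest in CCD 841 CoN (24640112). The part of depth in these differences was not tested. Without the third library of every line, the members called higher than in CCD 841 CoN were 64 in LoVo and 29 in LS1034. In HT-29 they were 34 and in HCT 116 they were 30. That setting leaves fewer libraries per line, and the share of all genes called in it is not given here.

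**Figure D4:**
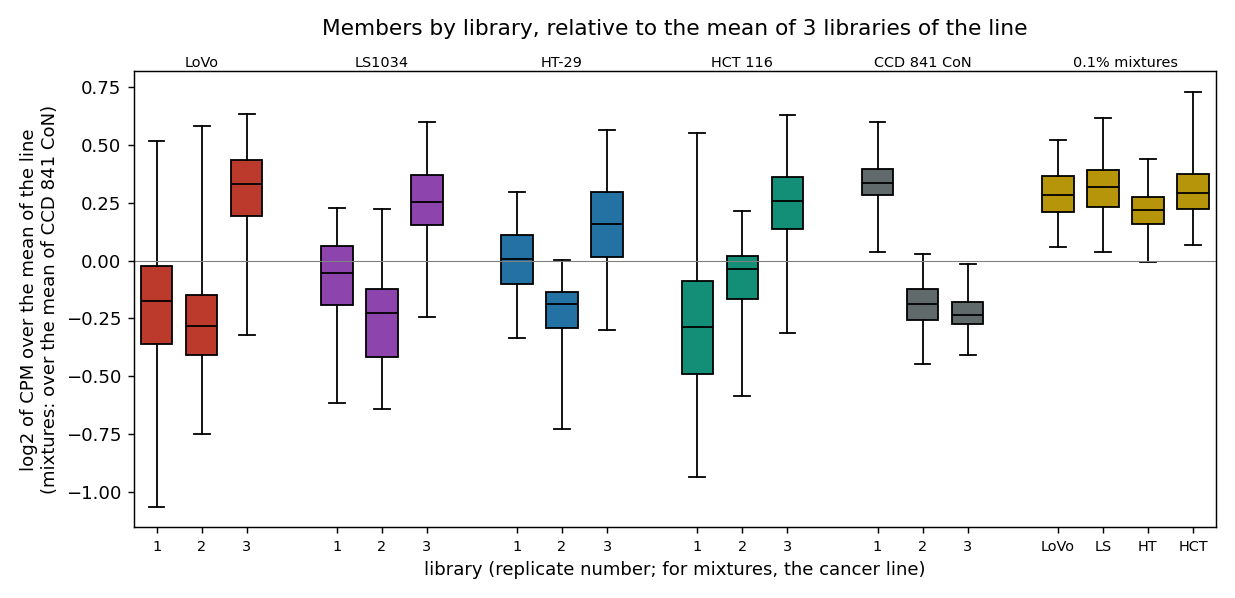
Log2 of CPM over the mean of the 3 libraries of a line (y axis) for the 77 members at 10 CPM or more except RPL39L, by library (x axis). For the 4 mixtures at 0.1% the reference is the CCD 841 CoN mean. Boxes span the quartiles with the median as a line, whiskers reach the lowest and highest member, and the CCD 841 CoN replicate 1 box and the 4 mixture boxes stand above CCD 841 CoN replicates 2 and 3.

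In the mixtures, the summed share rose with the labelled percentage in each line. The LoVo mixtures held 1.86% of counts in the members at 0.1%, 1.97% at 1%, 2.52% at 10% and 4.71% at 50%. The LS1034 mixtures held 1.89%, 1.93%, 2.24% and 3.28%, the HT-29 mixtures 1.79%, 1.89%, 2.17% and 3.27%, and the HCT 116 mixtures 1.88%, 1.93%, 2.17% and 3.13%. The mixtures of LS1034, HT-29 and HCT 116 stayed close to one another at each percentage, and LoVo stood apart from 10% upwards. Against the share expected from the unmixed means at the labelled percentage, taking equal messenger RNA per unit of total RNA, the observed share was 1.20 ± 0.03 times as large at 0.1%, 1.23 ± 0.01 at 1%, 1.23 ± 0.02 at 10% and 1.17 ± 0.06 at 50% (SD, n = 4 mixtures). With CCD 841 CoN replicate 1 alone as the reference the ratios were 0.963, 0.991, 1.04 and 1.10. With the mean of the 0.1% mixtures as the reference they were 0.998, 1.03, 1.07 and 1.11, so at 50% the observed share was above the expected one with each of these references. In all of them the cancer side was the mean of 3 libraries, which differed among themselves (5.74% to 8.96% in LoVo). Whether the excess at 50% holds with single cancer libraries was not tested.

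**Figure D5:**
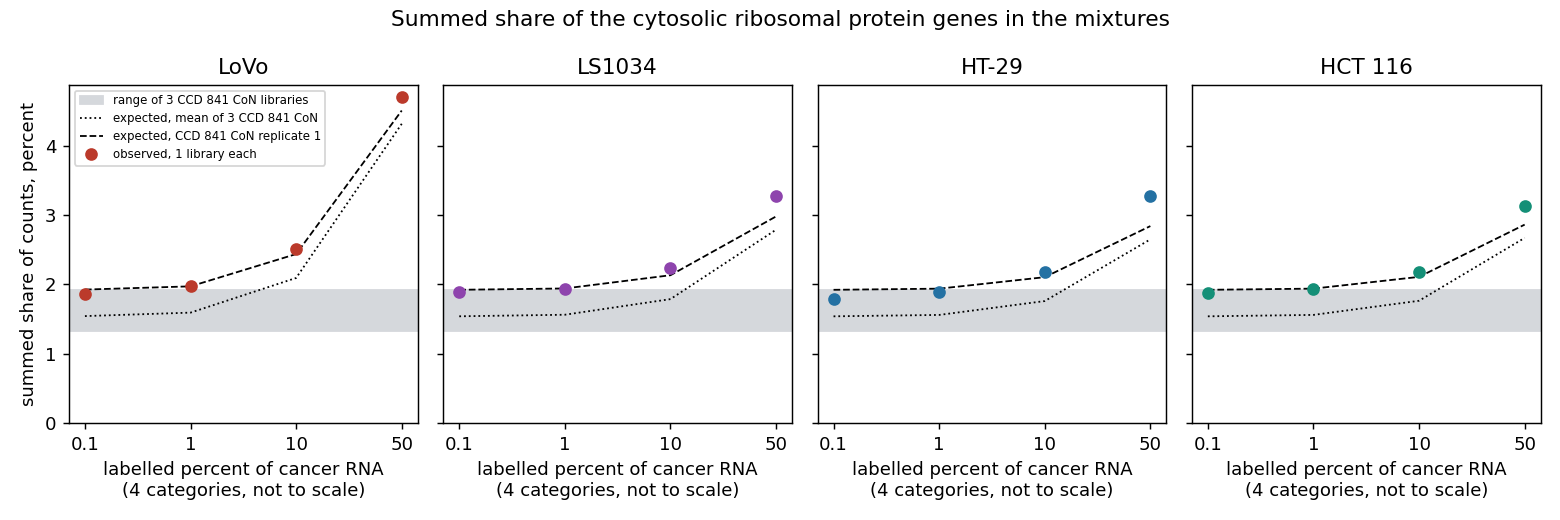
The y axis gives the percent of counts held by the members and the x axis the labelled percent of cancer RNA as 4 categories, with 1 panel per cancer line. Points are single mixture libraries, and the grey band is the range of the 3 CCD 841 CoN libraries, 1.32% to 1.92%. Lines are the shares expected from the unmixed libraries, with the mean of 3 libraries on the cancer side. The points at 50%, from 3.13% to 4.71%, lie above both of these lines.

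Gene by gene, the 50% mixtures were higher than the 0.1% mixtures in nearly all members. With the cancer line as a block in edgeR, 75 of 78 members tested were higher and 1 lower (all 13212 genes: 30.1% higher, 24.1% lower), with a members' median log2 fold change of 0.79 against 0.08 for all genes. RPS21, a small subunit protein at the solvent side, rose most, by 1.47 ± 0.10 (adjusted p = 6.24e-08), from 116, 113, 106 and 124 CPM in the LoVo, LS1034, HT-29 and HCT 116 mixtures at 0.1% to 368, 350, 399 and 272 CPM at 50%. RPS12 followed with 1.35 ± 0.17 (adjusted p = 1.91e-05), then RPS3 with 1.29 ± 0.08 (adjusted p = 1.21e-08) and RPS6, the target of the S6 kinases, with 1.23 ± 0.12 (adjusted p = 1.12e-06). The lower member was RPS27L, which fell by 0.35 ± 0.08 (adjusted p = 0.00252). It stood at 450, 425, 410 and 444 CPM at 0.1% and at 470, 334, 342 and 339 CPM at 50%, with the LoVo mixture apart from the other 3.

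RPL39L was split by line in the mixtures too. It stood at 18.4, 15.8, 15.1 and 18.4 CPM in the LoVo, LS1034, HT-29 and HCT 116 mixtures at 0.1%, and at 32.2, 8.31, 7.37 and 8.10 CPM at 50%. At 50% the LoVo mixture lay above every 0.1% mixture and the other 3 lay below every one. The change over all 4 lines, -0.60 ± 0.30, was not called (edgeR adjusted p = 0.102), and without the LoVo mixtures it was -1.16 and called (adjusted p = 0.000544).

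At 10% the differences were small. In edgeR, 9 of 78 members were higher than at 0.1% and none lower (all genes: 6.21% higher, 1.18% lower), with a members' median of 0.24 against 0.01. No member was lower at an unadjusted p of 0.05 or in DESeq2, and 40 were higher at that unadjusted p. Among the 9 were RPS21 (0.54 ± 0.10), RPL39 (0.45 ± 0.09), RPS3 (0.44 ± 0.07), RPS6 (0.41 ± 0.11), RPS16, RPS13, RPL7 and RPL13. In 68 members all 4 mixtures at 10% lay above all 4 at 0.1%, as did 11.4% of all genes. The count of called members was 18 with library size scaling, 16 with DESeq2, and 5 without the LoVo or without the HT-29 mixtures. RPL39 lost its call without the LoVo mixtures (0.43, adjusted p = 0.068), the LS1034 mixtures (0.43, adjusted p = 0.0974) or the HT-29 mixtures (0.40, adjusted p = 0.102), RPS6 likewise (0.33, 0.38 and 0.45), and RPS21 without the LS1034 mixtures (0.51, adjusted p = 0.0798).

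Members with and without the TOP tract at the annotated start base were both mostly higher in the cancer lines, where 31.8% of all genes were called higher and 27.8% lower. Of 46 members with the tract, 42 were called higher over the 4 lines and none lower, with a median of 1.30. Of the 17 tested members without it, 12 were higher and 1, RPS27L, lower, with a median of 0.99, and the difference between these groups was not tested. The 17 members without a window in the table included 15 higher and 1 lower, with a median of 1.32.

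Genes that work beside the ribosomal proteins were compared over the same 4 lines, beside 31.8% of all genes higher, 27.8% lower and a median of 0.22. Of 20 translation factors and other genes whose messenger RNAs are known for a TOP tract, 17 were higher and none lower in edgeR, also at an unadjusted p of 0.05, with a median log2 fold change of 1.14. EIF2S3, a subunit of the factor that brings the initiator tRNA, rose by 2.26 ± 0.26 (edgeR adjusted p = 1.75e-06) and PABPC1, the cytoplasmic poly(A)-binding protein, by 2.05 ± 0.31 (adjusted p = 3.32e-05). Of 45 ribosome biogenesis genes, 33 were higher and 1 lower (median 1.01). FBL, the methyltransferase of the box C/D particles, rose by 2.41 ± 0.34 (adjusted p = 1.42e-05) from a mean of 26.1 CPM to one of 172 CPM, and NOLC1, a nucleolar assembly factor, by 2.25 ± 0.25 (adjusted p = 8.52e-07). SBDS, which helps free the mature large subunit, fell by 1.32 ± 0.25 (adjusted p = 0.000289), but it has a near-identical pseudogene copy and its value is uncertain. Of 76 mitochondrial ribosomal protein genes, 38 were higher and 2 lower (median 0.52). MRPS30 rose by 2.15 ± 0.24 (adjusted p = 1.06e-06) and MRPL36 fell by 0.72 ± 0.21 (adjusted p = 0.00815), though the latter was -0.43 and not called with library size scaling (adjusted p = 0.0842), nor called with CCD 841 CoN replicate 1 as the only control (-0.82, adjusted p = 0.0962).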

How the data were processed

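The deposited table holds counts of reads per protein-coding gene for 31 libraries, as whole numbers that the authors deposited without normalization, judging by the values. Per the submitters' processing notes, reads were aligned with STAR to hg19 and counted with featureCounts; versions, strand setting and the treatment of multi-mapping reads are not given in the sources used here. CPM are counts per 1000000 of a library's total, and a summed share is the members' part of that total. Genes were tested with edgeR 4.0.16 (TMM, filterByExpr, glmQLFit and glmQLFTest) on all 15 unmixed libraries, or on the 16 mixtures with the cancer line as a block, and p-values were adjusted by Benjamini-Hochberg over all genes tested. A gene was called at an adjusted p below 0.05. DESeq2 1.42.0, other scalings and left-out libraries were alternatives. Shares were compared by an exact permutation test. The fits were tested on simulated data.

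The replicate numbers were checked for pairing. Same-numbered libraries of 2 cancer lines deviated together in 18 of 18 pairs (r 0.175 to 0.544), so the numbers were taken as pairing the cancer lines. Numbers did not pair a cancer line with CCD 841 CoN (12 pairs, r -0.041 to 0.022). The main fits of the unmixed libraries held no replicate block.

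Members, gene lists and tests were chosen with earlier results of these data known. Named were the L-suffix members and the genes they are named after, in each comparison the called members with the 8 largest and 8 lowest fold changes (a selection is printed), members against the main direction, the 5 highest and 5 lowest by CPM, the 10 varying most among the cancer lines, related genes outside the naming rule, and from each other list up to 3 called genes at either end. Members named as exceptions to a count (RPL35, RPS10 and RPS15 among them) were chosen after their values were seen. Some genes that the rule names are not reported here. Gene models, pseudogenes and lengths came from GENCODE 29 and promoter windows from RefSeq, both on GRCh38, so no coordinates were joined to the hg19 counts. RefSeq windows matched 64 of 81 members by symbol.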

Additional observations from a re-analysis of the deposited data

Results flagged for a closer look

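RPL39L differed between LoVo and each other cancer line. The log2 fold change of LoVo minus that of another line, both taken against CCD 841 CoN, which cancels, was 9.48 for LS1034 (edgeR quasi-likelihood test of the difference, adjusted p = 4.77e-07), 9.32 for HT-29 (adjusted p = 7.1e-07) and 10.03 for HCT 116 (adjusted p = 2.98e-07). The subtracted lines had 3 or 4 summed counts each, so the size of these differences depends on the prior count.

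In 56 groups of 4 mixtures at 1 percentage, 9 held a library far from the other 3 by Dixon's test. The mixtures of a group hold RNA of different cancer lines and are not replicates, so no chance rate can be set beside this count. At 50% the LoVo mixture stood apart in the summed share (4.71%, others 3.13% to 3.28%), in RPS12 (594 CPM, others 242 to 285), in RPL3 (1819 CPM, others 741 to 902), in RPS27L (470 CPM, others 334 to 342) and in RPL39L (32.2 CPM, others 7.37 to 8.31). Each of these also had its highest line mean in unmixed LoVo. At 10% RPS19 was high in the LoVo mixture (907 CPM, others 746 to 753) and RPL39 low in the HCT 116 mixture (69.8 CPM, others 84.8 to 87.4). At 1% RPS21 was low in the HCT 116 mixture (125 CPM, others 129 to 130), and at 0.1% RPS27 was low in the HT-29 mixture (238 CPM, others 262 to 264).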

How the results depend on the processing

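Every count of called members kept its main direction in each setting run, but the sizes rested on the CCD 841 CoN libraries. With CCD 841 CoN replicate 1 as the only control, 19 members were higher over the 4 lines, 46 in LoVo, 10 in LS1034, 6 in HT-29 and 4 in HCT 116, a setting chosen after seeing the data. Without the third library of every line, also chosen after seeing the data, 29 were higher in LS1034, 34 in HT-29 and 30 in HCT 116, and 21 varied among the cancer lines. With the 0.1% mixtures as the control, 67 were higher over the 4 lines. Library size scaling gave 1 lower member in LS1034 and 18 higher at 10%, where DESeq2 gave 16. Of all genes called, it moved the part called higher in LoVo from 55.1% to 65.9% and in HCT 116 from 55.2% to 65.3%. At 10% that part of the called genes moved from 84.0% to 97.2%, and DESeq2 size factors gave 70.3% there. With the replicate block, 71 members were higher over the 4 lines, 73 in LoVo, 62 in LS1034, 59 in HT-29 and 61 in HCT 116, and 58 varied among the cancer lines; besides the counts given in the text and RPL3L in LoVo it changed no call named there.

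Leaving out 1 library at a time gave 63 to 71 higher and 1 to 2 lower members over the 4 lines (1 without CCD 841 CoN replicate 1), 65 to 73 higher in LoVo, 43 to 60 in LS1034 with 1 to 2 lower (1 without LS1034 replicate 2 or CCD 841 CoN replicate 1), 41 to 59 in HT-29 and 43 to 60 in HCT 116. It gave 33 to 50 varying among the cancer lines. Leaving out the mixtures of 1 line at a time gave 73 to 75 higher and 1 to 2 lower at 50%, and 5 to 7 higher at 10%. With 1 unmixed library left out the share difference was 2.75 to 3.33 percentage points (exact permutation p up to 0.044).

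Observed over expected shares in the mixtures at 0.1%, 1% and 10% were 0.998, 1.03 and 1.07 with the 0.1% mixtures as the reference, 0.963, 0.991 and 1.04 with CCD 841 CoN replicate 1 (1.10 at 50%), 1.35, 1.38 and 1.34 with replicate 2, and 1.40, 1.42 and 1.37 with replicate 3.

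Signs turned only for values that were not called. RPS27L in LoVo was -0.10 with DESeq2 and with its size factors, -0.057 with the compared groups alone, -0.37 with CCD 841 CoN replicate 1, -0.24 without the third libraries, -0.25 against the 0.1% mixtures, and ranged from -0.19 to 0.24 with 1 library left out. Against CCD 841 CoN replicate 1 and against the 0.1% mixtures respectively, RPL22 was -0.084 and -0.089 in LS1034, RPL22L1 in HT-29 -0.35 and -0.40, and RPSA in HT-29 -0.11 and -0.12; RPS27 in HCT 116 was -0.077 against the former. With library sizes RPL26L1 was 0.015 and RPL36AL 0.10 over the 4 lines. The cause was not tested. Depth limits RPL3L and RPL10L.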
